A study of Homo sapiens with 6 samples.

Results

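On a glycogene array, 10 genes encode enzymes that build the core and branches of glycosphingolipids. These were UGCG, B4GALT6, B4GALNT1, B3GALT4, ST8SIA1, ST8SIA5, A4GALT, B3GALNT1 and GBGT1 for gangliosides and globosides, and UGT8 for a separate branch. They were found by matching the RefSeq accession inside each probe set name, without its version, to these symbols. All 10 were measured, with 11 probe sets, among 927 named genes and 1259 probe sets; A4GALT had 2 probe sets and each other gene 1. The cells were HCT116, a human colorectal cancer line with microsatellite instability. By their titles the samples carried wild-type ACVR2, an activin receptor gene, under doxycycline control, although the source names mention TGFBR2, ACVR2 and AIM2 at once. Of the arrays, 3 (+DOX) came from cells given doxycycline and activin A, the ligand of that receptor, and 3 (-DOX) from cells given activin A without doxycycline. Neither the dose, nor the time of induction, nor whether the construct cells were 1 clone was given in the sources used here. Activin A was shared by all 6 samples, and no sample received doxycycline without the construct, so drug and transgene cannot be told apart.

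Glycosphingolipids are membrane lipids in which a sugar chain is built on ceramide in the Golgi apparatus. Glucose is added first, then galactose, which gives lactosylceramide. At this branch point sialic acid leads into the ganglio-series, the lipids of neural membranes and of several tumour-associated antigens, and a further alpha-linked galactose leads into the globo-series, whose first member is the receptor for Shiga toxin. A separate branch puts galactose directly on ceramide and gives the lipids of myelin and, after sulphation, sulphatide.

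Promoter sequence was taken from RefSeq (GRCh38.p14) for the members that varied most between arrays, those with a range over 0.5 log2 units across the 6 arrays. These were UGCG, UGT8, B4GALT6 and B3GALNT1, and 3 of the 4 had a window in the table. The range alone chose them, and a link between these sequences and the levels was not tested. Each window is the 250 bases before the outermost annotated start, 5′ to 3′ on the gene's strand, with GC boxes (GGGCGG on either strand) in capitals. The windows lie at chr9:111896564-111896813 (plus strand) for UGCG, chr4:114598152-114598401 (plus strand) for UGT8 and chr3:161105350-161105599 (minus strand) for B3GALNT1.
UGCG: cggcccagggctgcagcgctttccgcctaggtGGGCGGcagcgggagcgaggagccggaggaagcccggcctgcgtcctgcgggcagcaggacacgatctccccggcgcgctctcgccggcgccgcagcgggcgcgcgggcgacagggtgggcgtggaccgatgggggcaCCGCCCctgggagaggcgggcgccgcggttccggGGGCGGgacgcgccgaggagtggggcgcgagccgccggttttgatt
UGT8: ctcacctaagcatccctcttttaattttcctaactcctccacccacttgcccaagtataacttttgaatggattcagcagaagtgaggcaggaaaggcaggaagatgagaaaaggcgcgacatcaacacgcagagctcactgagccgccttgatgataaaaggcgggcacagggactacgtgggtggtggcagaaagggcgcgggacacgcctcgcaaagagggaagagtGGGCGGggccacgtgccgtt
B3GALNT1: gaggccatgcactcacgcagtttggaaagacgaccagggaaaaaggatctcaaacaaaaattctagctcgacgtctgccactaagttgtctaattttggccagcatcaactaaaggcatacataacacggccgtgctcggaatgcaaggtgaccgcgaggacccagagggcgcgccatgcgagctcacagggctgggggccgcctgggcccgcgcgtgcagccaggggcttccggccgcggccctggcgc
The UGCG window was 78.4% G or C and held 3 GC boxes, the UGT8 window 54.8% with 1, and the B3GALNT1 window 60.8% with 0. Over 35116 windows of this length the median was 58.0%, and 42.6% held at least 1 GC box. The motif CCAAT, held by 32.0% of all windows, was found on neither strand of these 3. The same was true of the TATA box TATAAA, held by 10.7%. It was also true of CAGACA, the core of a motif bound by SMAD proteins, held by 13.6%. No overlap between motifs arose, and a match or its lack says only which letters stand in the window. RefSeq lists 3 windows each for UGT8 and B3GALNT1, of which the outermost is printed.

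The values are RMA levels on the log2 scale, a normalized brightness per probe set, so a difference of 1 is a doubling. Across the whole table array medians lay between 7.61 and 7.65. One array, -DOX replicate 3, stood apart from the other 5, with correlations of 0.982 to 0.991 across probe sets and a first principal component score of 10.1, against -3.15 to 1.51 on the others. Differences that turned or moved by over 1.5 times without it are therefore given both ways. ACVR2A averaged 8.08 ± 0.07 on +DOX arrays and 8.34 ± 0.32 on -DOX arrays (SD, n = 3 each), so its probe set was not higher with doxycycline. The difference of -0.26 was -0.08 without -DOX replicate 3, which read 8.70, and whether its probes lie in the construct is unknown. Groups are called by their labels for that reason. Only MUC2 of 12 colon epithelium markers was on the array, at 7.23 to 7.29 on +DOX arrays and 7.25 to 7.34 on -DOX arrays. HCT116 identity could not be checked from these data. Of 13 markers of other cells 6 were measured, and their mean level ran from 6.79 to 6.80 on +DOX arrays and from 6.82 to 6.84 on -DOX arrays, with 0 past the threshold.

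None of the 10 enzyme genes differed between +DOX and -DOX cells past the threshold. The threshold was an adjusted p of 0.05 (limma, Benjamini-Hochberg over all 1259 probe sets), and 0 probe sets passed it (0% of the table). The smallest adjusted p of any probe set was 0.158. By unadjusted p under 0.05, 0 of the 11 member probe sets qualified, against 98 of 1259 (7.78%), 41 higher and 57 lower with doxycycline. That split was 63 higher and 44 lower when arrays were centred on their medians, and 61 higher and 51 lower after a further quantile normalization. It was 74 higher and 172 lower with array weights, and 76 higher and 182 lower without -DOX replicate 2. Mean levels of 6 members were higher and of 4 lower on +DOX arrays, with a median difference of 0.0098 log2 units, beside -0.01 over the 927 genes. Without -DOX replicate 3 the tally turned to 3 higher and 7 lower, with a median of -0.0081, beside -0.02 over the 927 genes. Of those 927 genes 415 were higher and 512 lower with all arrays, and 344 higher and 583 lower without that array. In these bulk samples fewer expressing cells and less RNA per cell cannot be told apart.

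UGCG, the glucosyltransferase that makes glucosylceramide and so opens both series, was among the most variable members. It read 8.66, 8.93 and 8.28 on +DOX replicates 1, 2 and 3, against 8.33, 8.22 and 8.85 on -DOX replicates 1, 2 and 3. The groups overlapped fully: each had high and low arrays, and the highest of one lay near the highest of the other. The mean was 8.62 ± 0.33 with and 8.46 ± 0.34 without doxycycline (SD, n = 3 each). The difference of 0.16 log2 units had a 95% confidence interval of -0.42 to 0.73 (limma, adjusted p = 0.815), that is 1.12-fold with a range of 0.749 to 1.66. The exact permutation p was 0.6, and the smallest that 3 against 3 arrays can give is 0.1. Without -DOX replicate 3 the difference was 0.35 (-0.14 to 0.84; limma, adjusted p = 0.667), more than 1.5 times as large. Without +DOX replicate 2, the highest array of that group, it was 0.0048.

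UGT8, the galactosyltransferase that makes galactosylceramide from the same ceramide, showed nearly the same order of arrays. Its levels were 8.71, 8.74 and 8.39 on +DOX replicates 1, 2 and 3, against 8.49, 8.36 and 8.93 on -DOX replicates 1, 2 and 3. As for UGCG, +DOX replicate 3 and -DOX replicates 1 and 2 were the 3 low arrays, and the others were high; the 2 genes differed only in which array came first. The groups overlapped, and the mean was 8.61 ± 0.20 with and 8.59 ± 0.30 without doxycycline (SD, n = 3 each). The difference was 0.02 (95% interval -0.42 to 0.46; limma, adjusted p = 0.985). It was 0.19 without -DOX replicate 3 and turned to between -0.03 and -0.10 when +DOX replicate 1 or 2, or -DOX replicate 1 or 2, was left out.

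B4GALT6, a galactosyltransferase that turns glucosylceramide into lactosylceramide, had the widest range of the 10, at 1.00 log2 units. The +DOX replicates 1, 2 and 3 read 7.99, 7.81 and 7.90, against 8.03, 7.79 and 8.80 on -DOX replicates 1, 2 and 3. The other arrays lay close together, far below -DOX replicate 3. The mean of 7.90 ± 0.09 with doxycycline stood beside 8.21 ± 0.52 without (SD, n = 3 each), a difference of -0.31 (95% interval -0.95 to 0.34; limma, adjusted p = 0.730; exact permutation p = 0.5). Without that array the difference was -0.01 (-0.24 to 0.22), so 1 array carries nearly all of it. B4GALT5, the enzyme that shares this step, was named after its values were seen. Its difference was -0.09, and -0.015 without the same array, with its highest value, 11.22, also there.

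**Figure D1:**
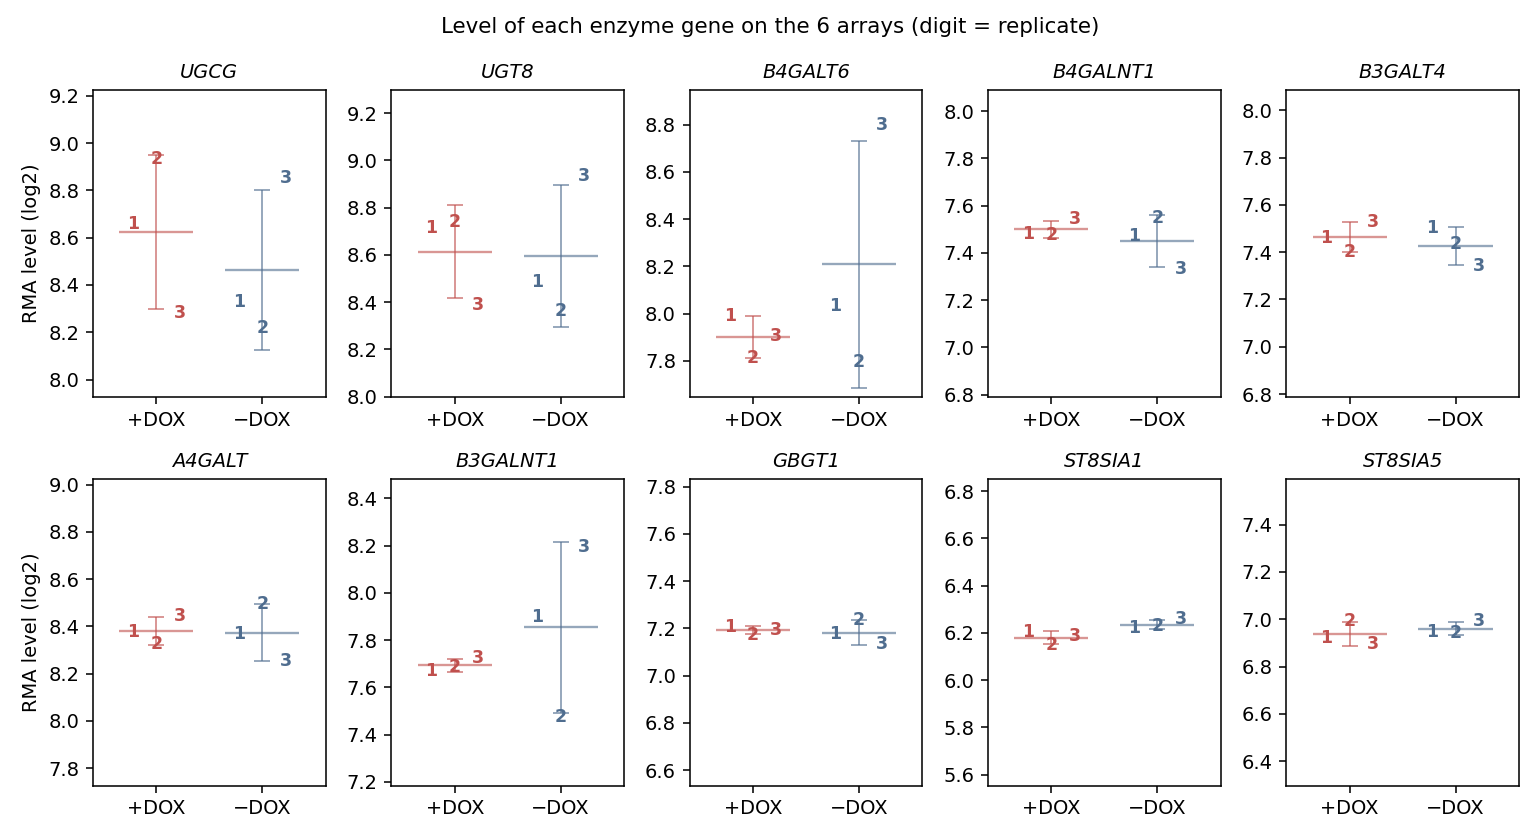
RMA level (log2, vertical axis) of each of the 10 enzyme genes on +DOX and -DOX arrays; digits are replicate numbers, horizontal lines means and bars SD (n = 3 each). All panels span the same number of log2 units; UGCG, UGT8, B4GALT6 and B3GALNT1 spread over more than 0.5 units, B4GALT6 through -DOX replicate 3 at 8.80.

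The enzymes of the ganglio-series showed small differences between the groups and small spread within them. B4GALNT1, which adds N-acetylgalactosamine to make GM2 and GD2, read 7.48, 7.48 and 7.54 on +DOX replicates 1, 2 and 3, against 7.47, 7.55 and 7.33 on -DOX replicates 1, 2 and 3. The -DOX arrays enclosed all of the +DOX values. Its difference was 0.05 (95% interval -0.11 to 0.21; limma, adjusted p = 0.779), and -0.0089 without -DOX replicate 3, the lowest array. B3GALT4, the galactosyltransferase that makes GM1 and its relatives, read 7.46, 7.40 and 7.53 on +DOX arrays, against 7.50, 7.44 and 7.34 on -DOX arrays, in replicate order. The groups overlapped here too, with a difference of 0.04 (-0.11 to 0.18; limma, adjusted p = 0.835) that was -0.0061 without -DOX replicate 3.

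Of the sialyltransferases in the series, ST8SIA1, the GD3 synthase that opens the b-series, was the only member whose groups did not overlap. It read 6.20, 6.15 and 6.19 on +DOX replicates 1, 2 and 3, against 6.22, 6.23 and 6.26 on -DOX replicates 1, 2 and 3. Every +DOX array lay below every -DOX array, by 0.020 log2 units at the closest. This was 1 of 11 member probe sets in that direction, against 8.26% of all probe sets (15.8% in either direction). The difference was -0.06 (95% interval -0.14 to 0.03; limma, adjusted p = 0.692; exact permutation p = 0.1), a ratio of 0.962, and -0.05 without -DOX replicate 3. Both means, 6.18 ± 0.03 and 6.24 ± 0.02 for +DOX and -DOX arrays (SD, n = 3 each), fall below 6.88, the lower quartile of probe set means. Detection calls were not used here, and the share of background in this brightness is unknown.

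ST8SIA5, which adds a further sialic acid to make more highly sialylated gangliosides, read 6.92, 6.99 and 6.90 on +DOX arrays, against 6.95, 6.94 and 6.99 on -DOX arrays, in replicate order. The groups overlapped, with +DOX replicates giving both the highest and the lowest value. The difference was -0.02 (95% interval -0.12 to 0.08; limma, adjusted p = 0.856), and -0.0073 without -DOX replicate 3. Its mean level lay just above the lower quartile, so it too comes from a dim probe set.

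In the globo-series, A4GALT, which makes the Shiga toxin receptor Gb3 from lactosylceramide, gave a difference near 0 on both of its probe sets. The brighter one read 8.38, 8.33 and 8.44 on +DOX replicates 1, 2 and 3, against 8.37, 8.50 and 8.25 on -DOX replicates 1, 2 and 3. The +DOX values lay inside the span of the -DOX values. The difference was 0.0099 (95% interval -0.17 to 0.19; limma, adjusted p = 0.976) on this probe set and -0.02 (-0.25 to 0.21; limma, adjusted p = 0.964) on the other, whose name carries the suffix Affymetrix uses for probes that may match other sequences. Without -DOX replicate 3 they were -0.05 and -0.10.

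B3GALNT1, which extends Gb3 to globoside, was the most variable globo-series gene. It read 7.67, 7.69 and 7.72 on +DOX replicates 1, 2 and 3, against 7.90, 7.47 and 8.19 on -DOX replicates 1, 2 and 3. The +DOX arrays were tightly grouped and the -DOX arrays lay on both sides of them. Their SD was 0.03 with and 0.36 without doxycycline (n = 3 each), and the difference was -0.16 (95% interval -0.61 to 0.28; limma, adjusted p = 0.749). Without -DOX replicate 3 it was 0.0074 (-0.32 to 0.33), and without -DOX replicate 2, the lowest array, -0.35 (limma, adjusted p = 0.147). The direction of this value therefore rested on -DOX replicate 3, and its size on -DOX replicate 2 as well.

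GBGT1, whose counterpart in other mammals turns globoside into the Forssman antigen, had a narrow range of 0.10. It read 7.21, 7.17 and 7.19 on +DOX replicates 1, 2 and 3, against 7.18, 7.24 and 7.13 on -DOX replicates 1, 2 and 3. The -DOX arrays again lay on both sides of the +DOX arrays. The difference was 0.0097 (95% interval -0.09 to 0.11; limma, adjusted p = 0.956), and -0.015 without -DOX replicate 3.

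**Figure D2:**
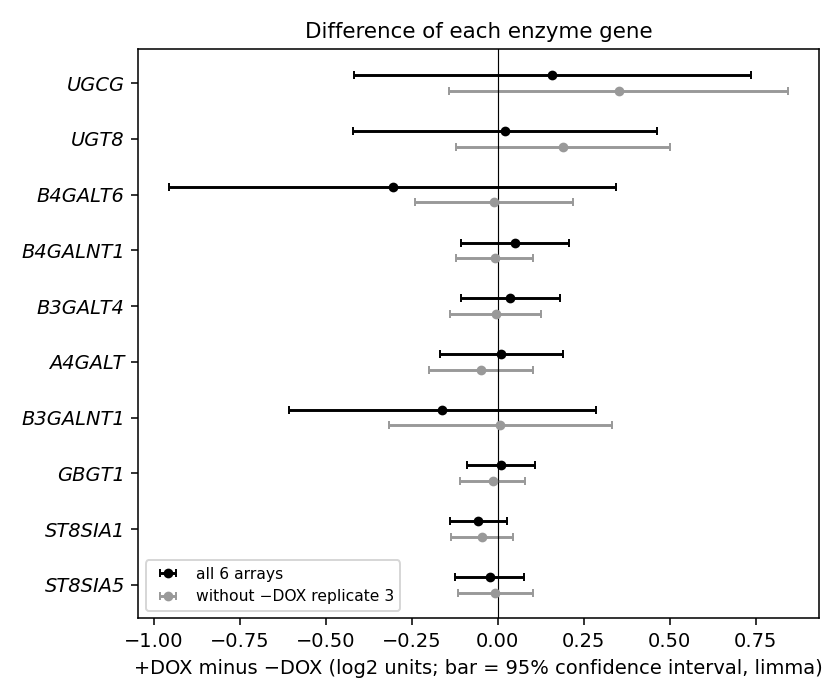
Difference of each enzyme gene, +DOX minus -DOX, in log2 units on the horizontal axis; points are limma estimates and bars 95% confidence intervals, in black for all 6 arrays and in grey without -DOX replicate 3. Every interval spans 0; B4GALT6 lies at -0.31 with all arrays and at -0.01 without that array.

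Whether these cells favour one series cannot be read from the levels of its enzymes, because probe sets differ in how brightly they report the same amount of RNA. Group means spanned 6.18 to 7.50 with and 6.24 to 7.45 without doxycycline for the 4 ganglio-series genes, and 7.19 to 8.38 with and 7.18 to 8.37 without for the 3 globo-series genes. These are given as the span within each series and not as an order between them. Changes were set side by side instead, though whether dim and bright probe sets report change alike was not tested. Of the 4 ganglio-series genes 0 lay above the median of probe set means, against 2 of the 3 globo-series genes and 497 of all 927 genes. That describes the brightness of the probe sets and gives no order between the series. Each gene was centred on its mean over the 6 arrays, and the mean of the ganglio-series genes was subtracted from that of the globo-series genes on each array. The balance was -0.02, -0.04 and -0.01 on +DOX replicates 1, 2 and 3, against 0.02, -0.06 and 0.12 on -DOX replicates 1, 2 and 3. The groups overlapped, since -DOX replicate 2 was the lowest of all and -DOX replicate 3 the highest. On -DOX replicate 3 the centred value of B3GALNT1 was 0.42, against -0.12 for A4GALT and -0.05 for GBGT1. On -DOX replicate 2 it was -0.30, against 0.12 for A4GALT and 0.05 for GBGT1. On the globo side both extremes thus followed B3GALNT1 alone, while the other globo-series genes moved the opposite way. Means were -0.02 ± 0.01 with and 0.02 ± 0.09 without doxycycline (SD, n = 3 each), a difference of -0.05 that was -0.0018 without -DOX replicate 3. By median, the ganglio-series genes differed by 0.0064 and the globo-series genes by 0.0097. Both were on the lower side without that array, at -0.0081 and -0.015.

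Among themselves the 10 genes fell into 4 that varied between arrays and 6 with ranges under 0.3 log2 units. A range over 0.5 was found in 26.2% of the 927 genes. On -DOX replicate 3, UGT8, B4GALT6, B3GALNT1 and ST8SIA1 had their highest value of the 6 arrays, and B4GALNT1, B3GALT4, A4GALT and GBGT1 their lowest. Thus 8 of 10 members were at an extreme on this array, as were 62.9% of the 927 genes. B4GALNT1, B3GALT4 and A4GALT were lowest there by 0.10 to 0.14 below their own means, and B4GALT6 was highest by 0.74. Median SDs of the members were 0.05 on +DOX and 0.11 on -DOX arrays, beside 0.05 and 0.09 over all probe sets.

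**Figure D3:**
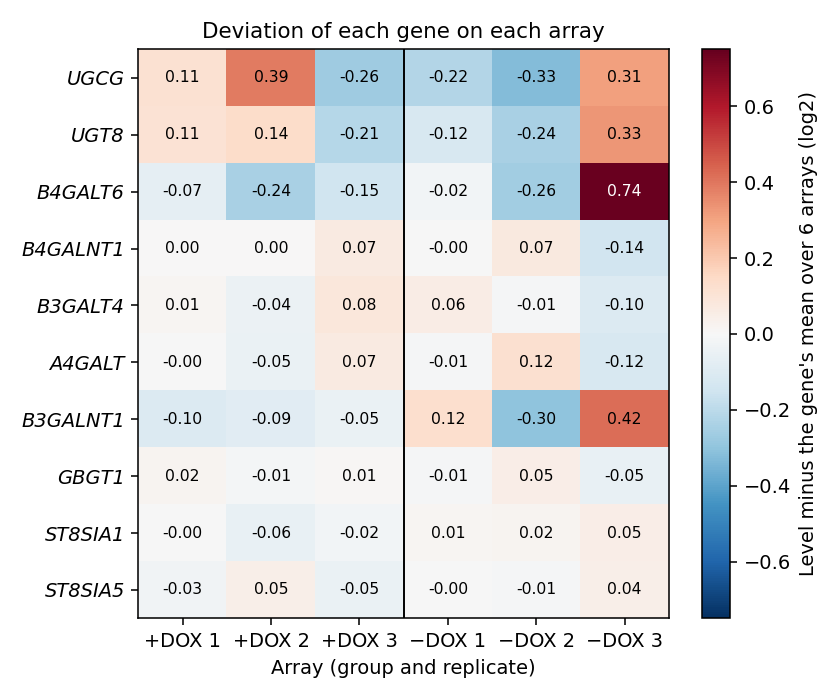
Level of each enzyme gene minus its own mean over the 6 arrays (log2 units, colour and printed value), genes in rows and arrays in columns, +DOX to the left of the line. The column of -DOX replicate 3 holds the deviation of 0.74 for B4GALT6; UGCG and UGT8 share high values on +DOX replicates 1 and 2 and -DOX replicate 3.

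For the 3 members with the widest ranges, the genes with the most similar profile were sought among the 917 other named genes. The measure was Pearson's r over 6 arrays, given as a description because all genes share the same arrays and 1 array stands apart. For B4GALT6 these were GFPT2, of the hexosamine pathway (r = 0.998), GNPDA1, a glucosamine-6-phosphate deaminase (r = 0.996), and MAN2A1, a Golgi mannosidase (r = 0.990). For B3GALNT1 they were GFPT1, the first enzyme of the hexosamine pathway (r = 0.996), GALNT1, which starts mucin-type O-glycans (r = 0.996), and ALG6, a glucosyltransferase of the N-glycan precursor (r = 0.994). For UGCG they were CLEC4C, a C-type lectin (r = 0.918), TGFBRAP1, a TGF-beta receptor-associated protein (r = 0.893), and LCT, lactase (r = 0.877). CLEC4C read only 6.29 to 6.45 and LCT 6.60 to 6.72 over the 6 arrays, below the lower quartile of probe set means. The share of background in these 2 dim probe sets is unknown. Without -DOX replicate 3, over 5 arrays, r was 0.825 to 0.977 for these genes with B4GALT6, 0.984 to 0.993 with B3GALNT1 and 0.837 to 0.988 with UGCG.

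Around these 10 genes, 0 of the other transferases of glycosphingolipid chains passed the threshold. Of 18 listed, 17 were measured, 7 higher and 10 lower on +DOX arrays, or 8 and 9 without -DOX replicate 3. Their differences ran from -0.18 to 0.26 with a median of -0.01, and 2 of 17 had an unadjusted p under 0.05, beside 7.78% of all probe sets. The upper end was the sialyltransferase ST6GALNAC4, named after its values were seen, at 0.26 and 0.07 without -DOX replicate 3. ST6GALNAC5, a ganglioside sialyltransferase, read 7.05, 7.19 and 7.18 on +DOX arrays, against 7.00, 6.95 and 6.94 on -DOX arrays, in replicate order. All 3 +DOX arrays were above all 3 -DOX arrays, with a difference of 0.17 (95% interval 0.05 to 0.30; limma, adjusted p = 0.477) and 0.16 without -DOX replicate 3. GCNT2, the I-branching enzyme, was at -0.14, FUT3, the Lewis fucosyltransferase, at -0.08 and FUT1, which makes the H antigen, at -0.18. On the brighter probe set of FUT3 every +DOX array lay below every -DOX array. Of the 17 genes 1 was higher and 2 were lower without overlap of the groups, beside 7.55% and 8.26% of all probe sets. A further pair, which act on lactosylceramide, were named after their values were seen. ST3GAL5, the GM3 synthase at the entry of the ganglio-series, was at -0.0084 (95% interval -0.18 to 0.16) and, without -DOX replicate 3, at 0.04. B3GNT5, which opens the lacto-series, was at -0.11 and, without -DOX replicate 3, at 0.14. The 4 other sialyltransferases of the ST8SIA family lay between -0.05 and 0.03, ST8SIA2 and ST8SIA4 at those ends and ST8SIA3 and ST8SIA6 both at 0.03. This holds for the brightest probe set of ST8SIA4. Its dimmer ones were at -0.04 and 0.0052, the latter at 0.03 without -DOX replicate 3. Without -DOX replicate 3 ST8SIA6 was at 0.05. All 4 had means in the lower quartile.

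Among genes that take glycosphingolipids apart, 0 passed the threshold. From 19 listed genes 16 were measured, of which 7 had higher and 9 lower means (8 and 8 without -DOX replicate 3), and their median of -0.04 was -0.00037 without -DOX replicate 3. NEU1, the lysosomal sialidase, read 9.56, 9.50 and 9.52 on +DOX arrays, against 9.27, 9.31 and 9.05 on -DOX arrays, in replicate order. The groups did not overlap, and the difference was 0.31 (95% interval 0.12 to 0.51, limma adjusted p = 0.477), or 0.23 without -DOX replicate 3. As for the dimmer A4GALT probe set, the name of this one carries the suffix for probes that may match other sequences. The other NEU1 probe set was at 0.40 (95% interval 0.25 to 0.55, limma adjusted p = 0.213), also without overlap. GLA, the galactosidase that removes the terminal galactose of Gb3, was at 0.29 and 0.14 without that array. SMPD1, the acid sphingomyelinase, was at 0.14. GLA was also higher on every +DOX array than on any -DOX array, while the groups of SMPD1 overlapped. Of the 16 genes 3 were higher and 1 was lower without overlap of the groups, beside 7.55% and 8.26% of all probe sets. NEU3, the plasma membrane sialidase that acts on gangliosides, was named after its values were seen. It was at -0.05 and lower on every +DOX array than on any -DOX array.

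Among genes that supply sugar donors, 0 passed the threshold. Of 10 measured genes from 11 listed, 9 were higher and 1 lower on +DOX arrays, but 6 higher and 4 lower without -DOX replicate 3. Their median of 0.09 was 0.06 without that array. Over all 927 genes 415 were higher and 512 lower, or 344 and 583 without it. NANS, the sialic acid synthase, was at 0.45 (95% interval 0.02 to 0.89; limma, adjusted p = 0.590) and 0.25 without that array. CMAS, which activates sialic acid, was at 0.08, and UGP2, which makes UDP-glucose, at 0.10; without the array UGP2 was at 0.18. Of the 16 listed genes of ceramide supply, 0 were on the array under their symbols. Among 4 lectins that bind glycolipids, LGALS1 was at 0.27 and 0.06 without -DOX replicate 3, and MAG, SIGLEC7 and LGALS4 lay between -0.02 and 0.0034, or -0.03 and -0.0058 without it.

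**Figure D4:**
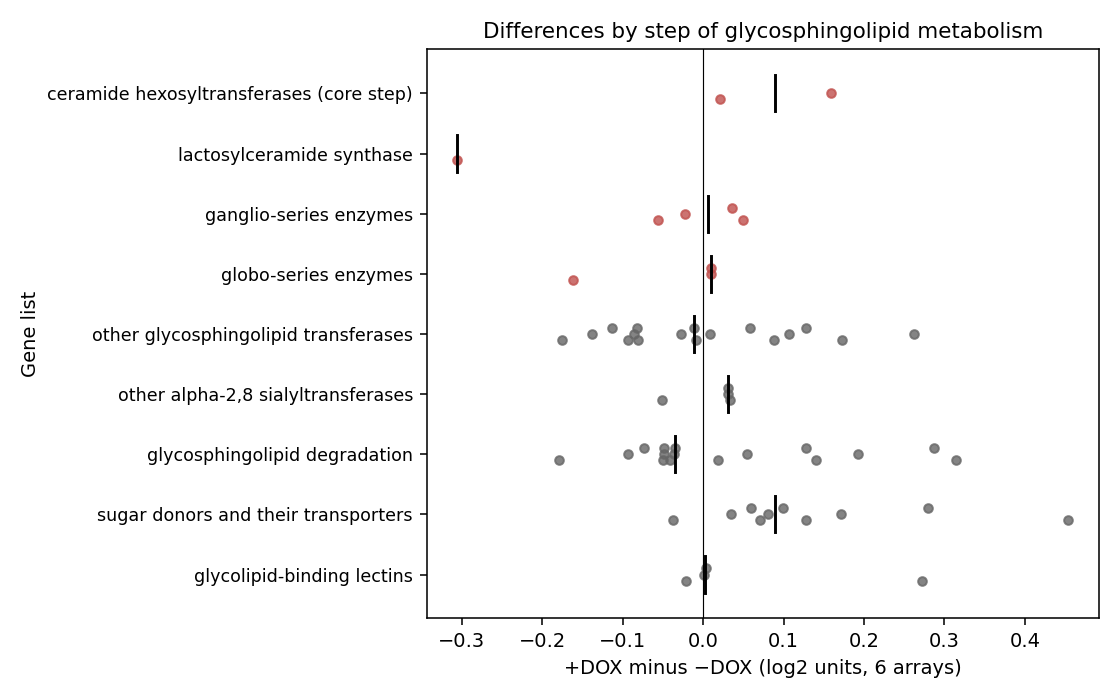
Difference +DOX minus -DOX (log2 units, horizontal axis) of each measured gene by step of glycosphingolipid metabolism; points are genes, red for the 10 synthesis enzymes described here and grey for the wider lists, and black ticks are list medians. The ganglio- and globo-series medians lie at 0.0064 and 0.0097, and 9 of 10 sugar donor genes lie to the right of 0, against 6 of 10 without -DOX replicate 3.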

How the data were processed

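Total RNA was extracted with Trizol and 0.5 ug was turned into biotinylated cRNA following Affymetrix, as the labels' protocols state. The deposited values are log2 levels for 1259 probe sets on 6 arrays, made by the authors with RMA (version not given), per the submitters' processing notes. Further upstream steps, the genome build and detection calls are not given in the sources used here. Probe sets were named through refseq_genes (GRCh38.p14): 1043 (82.8%) had 1 symbol. Where a gene had several probe sets, the brightest over 6 arrays represents it.

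The comparison used limma 3.58.1 under R 4.3.3 (lmFit, eBayes, two-sided, no block) with Benjamini-Hochberg adjustment over all 1259 probe sets. The fit was tested on simulated data with equal spread in both groups and no array standing apart, unlike these data. An exact two-sided permutation test was added for members. Replicates are not said to be separate cultures, so p-values reflect only the sample-to-sample spread here, possibly technical. Precision is limited by the number of arrays: the median 95% interval extended 0.152 log2 units to each side. The labels do not say whether a replicate number marks a shared culture, day or batch. The members and gene lists were chosen with earlier results of these data known. Genes named are all 10 members, up to 4 genes of smallest unadjusted p in each wider list, ACVR2A, and the 3 genes most alike in profile to each of the 3 most variable members; others are marked, and some genes that this rule names are not reported here. Alternatives were other normalizations, a dim probe set filter, a replicate block, array weights, a trended prior, gene means and each array left out.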

Additional observations from a re-analysis of the deposited data

How the results depend on the processing

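Of 129 member differences under the alternatives, 0 passed the threshold, 117 kept their sign and 12 changed it, 10 of them when 1 array was left out and 5 of them without -DOX replicate 3. The lowest adjusted p of a member was 0.147 (limma, B3GALNT1 without -DOX replicate 2). With 1 array left out, UGT8 ran from -0.095 to 0.19, turning without +DOX replicate 1 or 2 and without -DOX replicate 1 or 2. B4GALNT1 ran from -0.0089 to 0.099, B3GALT4 from -0.0061 to 0.073, A4GALT from -0.049 to 0.072, GBGT1 from -0.015 to 0.037 and B3GALNT1 from -0.35 to 0.0074. These 5 turned without -DOX replicate 3, and A4GALT also without +DOX replicate 3 (-0.021). A4GALT was at -0.0043 as the mean of both probe sets, and B3GALT4 at -0.021 with array weights. The cause of these turns was not tested beyond the left-out arrays.

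Over all probe sets 0 passed under each alternative (range 0 to 0 with 1 array left out), except that 1 passed with array weights (limma, adjusted p = 0.0378); the estimation of those weights stopped short of its tolerance. The median of the 10 members ran from -0.018 to 0.0016 with 1 array left out, that of the ganglio-series from -0.0081 to 0.015 and that of the globo-series from -0.021 to 0.037. The globo minus ganglio difference ran from -0.093 to -0.0018. Same-numbered arrays deviated with correlations of -0.15, -0.04 and -0.16, so the numbers gave no pairing. With the replicate block 0 probe sets passed (26 higher and 55 lower at an unadjusted p under 0.05), and the member median stayed at 0.0098. The dim filter removed ST8SIA1, so that gene has no value there. Results with dim probe sets are limited by the unknown background.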
